A study of Mus musculus with 10 samples.

Results

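Alveolar type 1 (AT1) cells are the thin, flat cells that line most of the gas-exchange surface of the lung. They are known for a thin cytoplasm rich in caveolae, for water channels in their apical membrane and for a basement membrane that they share with the capillaries. In the embryonic mouse lung they arise, like the surfactant-making alveolar type 2 (AT2) cells, from the progenitors at the distal tips of the branching epithelium. The genes described here are 10 AT1 genes: *Pdpn*, *Hopx*, *Aqp5*, *Ager*, *Akap5*, *Clic5*, *Cav1*, *Rtkn2*, *Emp2* and *Gprc5a*. Each was taken from the probe sets whose platform annotation names that gene and no other. A gene with several such probe sets would have been represented by the brightest, but each of the 10 had exactly 1. They are 10 of 17813 genes measured, or 10 of 21204 probe sets.

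RNA was hybridised to Affymetrix mouse expression microarrays, with 5 arrays for E17.5 distal tip cells and 5 for E11.5 distal tips. Embryos of both stages had the genotype *Id2-CreER; Rosa26R-fGFP* per the labels. At E17.5, GFP+ cells were sorted by flow cytometry from trypsin-dissociated lungs, after the mothers had received tamoxifen at E16.5 (150 μg per g body weight). At E11.5, tip epithelium was dissected by hand after 5 min in dispase (16 U/ml). *Id2* drives the tamoxifen-inducible Cre, so the sorted cells are those that expressed *Id2* at the time of labelling, plus some of the cells that had just arisen from them. In this design, stage and method of isolation cannot be told apart. The labels call the arrays biological replicates but do not say whether they came from separate litters, so p-values measure the spread between these samples. Values are log2 signals as deposited, given per stage as mean ± SD. Differences are E17.5 minus E11.5 and are given ± SE, and a gene was called at a limma adjusted p under 0.05.

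All 10 AT1 genes were higher at E17.5, where 36.9% of all genes tested were called higher. None was lower, where 31.5% of all genes were called lower. The difference was at least 2-fold for 9 of the 10, against 24.2% of all genes. On every E17.5 array each of the 10 had a higher signal than on any E11.5 array, as did 32.3% of all genes. The median difference of the 10 was 3.61 on the log2 scale, beside a median of 0.03 over all genes. The members ranged widely within this, from 40.3-fold for *Hopx* to 1.86-fold for *Rtkn2*. In these bulk samples more cells of a type and more RNA per cell cannot be told apart.

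**Figure D1:**
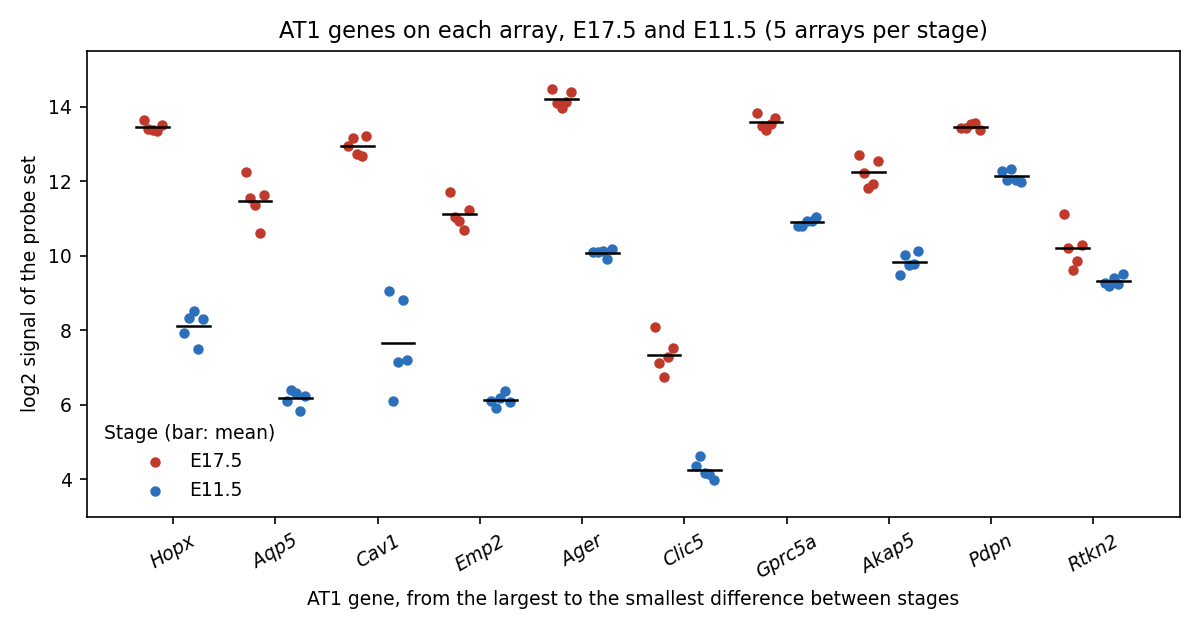
Log2 probe set signal (y axis) of each AT1 gene (x axis) on the 5 E17.5 arrays (red, left of each pair) and the 5 E11.5 arrays (blue, right). Bars are means. No gene's stages overlap, and the stages come closest for *Rtkn2*, where the gap between the nearest arrays was 0.09.

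The samples were checked against markers of the labelled cell type. Of the transcription factors that mark lung epithelium and its tips, *Nkx2-1* and *Sox9* were not called, with *Nkx2-1* at 9.52 ± 0.36 at E17.5 and 9.42 ± 0.41 at E11.5 (SD, n = 5; adjusted p = 0.72) and *Sox9* at 9.58 ± 0.37 at E17.5 and 9.60 ± 0.09 at E11.5 (adjusted p = 0.92). After quantile normalization *Sox9* was called lower at E17.5, with a log2 difference of -0.59 (adjusted p = 0.0041). Others were called in either direction, with log2 differences of -1.87 for *Etv4*, -1.35 for *Etv5*, -0.92 for *Foxa2*, -0.72 for *Foxp2*, -0.48 for *Foxa1* and 1.48 for *Mycn*. The epithelial factors *Grhl2* and *Elf3* had higher signals at E17.5. *Grhl2* was 12.35 to 12.47 over the E17.5 arrays and 7.53 to 8.0 over the E11.5 arrays. *Elf3* was 9.20 to 10.16 and 7.26 to 7.72. *Id2* averaged 12.79 at E17.5 and 10.69 at E11.5, and the epithelial adhesion genes *Epcam* and *Cdh1* averaged 13.34 and 13.36 at E17.5 and 11.43 and 12.72 at E11.5. Of the 18 pan-epithelial markers 10 were higher, 5 lower and 3 not called. The split was 6 higher and 6 lower once the arrays were quantile normalized. Markers of leukocytes and endothelium were mostly higher in the sorted cells. The pan-leukocyte gene *Ptprc* was 24.3-fold higher and the endothelial gene *Pecam1* 38.6-fold higher, and 12 of 14 macrophage and monocyte markers and 16 of 17 endothelial markers were called higher. Mesenchymal markers (6 of 13 higher, 3 lower) and mesothelial markers (3 of 7 higher, 2 lower) were near the shares of all genes called, 36.9% higher and 31.5% lower. Of 8 markers of club cells, an airway cell type, 6 were higher and 1 lower (median log2 difference 2.21). All 12 immediate early genes, such as *Fos*, were higher, with a median log2 difference of 4.96. Over the arrays, the mean log2 signal of the endothelial markers lay between 8.42 and 10.33 at E17.5, against 5.22 and 6.17 at E11.5. That of the mesenchymal markers lay between 9.13 and 10.10 at E17.5, against 7.97 and 8.97 at E11.5. The part of such cells in the AT1 gene differences was not tested. Some of the 10 genes are also known from them, *Cav1* from endothelium and *Pdpn* from lymphatic endothelium and mesothelium.

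The regulator among the AT1 genes is *Hopx*, which encodes a small homeodomain protein that does not bind DNA itself. Its probe set (1428662_a_at) gave 13.63, 13.41, 13.37, 13.35 and 13.50 on E17.5 replicates 1 to 5, against 7.93, 8.33, 8.53, 7.51 and 8.31 on E11.5 replicates 1 to 5. The E17.5 arrays lay within 0.28 of each other while the E11.5 arrays spread over 1.03, and the gap between the stages was 4.82. The mean was 13.45 ± 0.11 at E17.5 and 8.12 ± 0.41 at E11.5. *Hopx* rose by 5.33 ± 0.17 on the log2 scale, or 40.3-fold (95% interval 31.0 to 52.2, adjusted p = 5.2e-11). It stood in the 99.0th percentile of all genes by signal at E17.5 and in the 57.0th at E11.5.

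Channel proteins are represented by *Aqp5*, the apical water channel of AT1 cells, and *Clic5*, a chloride intracellular channel family protein linked to the cortical actin cytoskeleton. *Aqp5* (1418818_at) had signals of 12.25, 11.54, 11.37, 10.60 and 11.64 at E17.5, against 6.11, 6.39, 6.32, 5.84 and 6.24 at E11.5. Its E17.5 arrays were the most scattered of the 10 genes (SD 0.59), with replicate 1 highest and replicate 4 lowest, yet replicate 4 was still 4.21 above the highest E11.5 array. *Aqp5* rose by 5.30 ± 0.25 on the log2 scale, or 39.4-fold (95% interval 27.2 to 57.2, adjusted p = 1.3e-09). *Clic5* (1431261_at) was the dimmest AT1 gene at both stages, at 8.08, 7.11, 6.74, 7.29 and 7.52 at E17.5 and 4.35, 4.63, 4.16, 4.15 and 3.99 at E11.5. Its E11.5 mean of 4.25 lay in the 16.3rd percentile of all genes and its E17.5 mean of 7.35 in the 47.0th. The difference was 3.09 ± 0.22 on the log2 scale, or 8.53-fold (adjusted p = 6.7e-08).

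*Cav1* and *Emp2* encode proteins that shape the plasma membrane. *Cav1* encodes caveolin-1, the main coat protein of caveolae, and *Emp2* a tetraspan protein of the PMP22 family. *Cav1* (1449145_a_at) gave 12.95, 13.17, 12.73, 12.68 and 13.21 on the E17.5 arrays. The E11.5 arrays gave 9.06, 6.10, 7.15, 8.82 and 7.19, with replicates 1 and 4 far above the other three and replicate 2 lowest. This E11.5 SD of 1.25 was larger than that of 99.9% of all genes, and the interval of the fold was accordingly wide. *Cav1* rose by 5.28 ± 0.48 on the log2 scale, or 39.0-fold (95% interval 18.8 to 80.8, adjusted p = 7.6e-07). The difference was 4.89 without E11.5 replicate 2 and 5.63 without E11.5 replicate 1.

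The spread of *Cav1* among arrays was set beside that of markers of other cell types, and the orders of the arrays matched in part. The mean log2 signal of 13 mesenchymal markers was 8.96, 7.97, 8.53, 8.97 and 8.49 on E11.5 replicates 1 to 5, so that replicates 1 and 4 were highest and replicate 2 lowest, as for *Cav1*. The mean of 17 endothelial markers was 6.17, 5.22, 5.77, 5.82 and 6.10 on the same arrays, again lowest on replicate 2. The match was not particular to these lists. The mean of 7 mesothelial markers was 6.48, 5.77, 5.84, 6.10 and 5.96, the same order of arrays as for *Cav1*. That of 14 macrophage and monocyte markers was 6.36, 5.52, 6.19, 6.09 and 5.96, also highest on replicate 1 and lowest on replicate 2. That of 4 lymphatic endothelial markers was highest on replicate 1 (6.09) but lowest on replicate 3 (5.60). Among E17.5 arrays the endothelial mean was 8.70, 10.02, 9.22, 8.42 and 10.33. Replicates 5 and 2 were highest and replicate 4 lowest for both the endothelial mean and *Cav1*. Other orders differed. At E11.5 the endothelial mean was higher on replicate 5 (6.10) than on replicate 4 (5.82), while *Cav1* was 7.19 and 8.82 there. At E17.5 the mesenchymal mean was 9.13, 10.10, 9.72, 9.33 and 9.83, lowest on replicate 1, where *Cav1* was 12.95. *Cav1* is known from endothelium and fibroblasts as well as from AT1 cells, and the part of such cells in its signal was not tested.

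*Emp2* (1425272_at) gave 11.71, 11.03, 10.94, 10.69 and 11.22 at E17.5, against 6.10, 5.92, 6.18, 6.37 and 6.07 at E11.5. Unlike those of *Cav1*, its E11.5 arrays were close together, within 0.45 of each other. *Emp2* rose by 4.99 ± 0.17 on the log2 scale, or 31.8-fold (adjusted p = 7.8e-11). With *Hopx*, *Aqp5* and *Cav1* it makes up the 4 AT1 genes with the largest differences, which ranked 133rd, 138th, 141st and 199th of all 17813 genes by size of the rise.

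The stretch upstream of a gene's start site is where its core promoter lies. The 250 bases before the start are shown for these 4 genes because their differences were the largest of the 10. The sequences are from RefSeq (build GRCm38.p6), and for *Hopx* and *Cav1*, which have more than 1 start site listed, the first is shown. *Hopx* lies on the minus strand of chromosome 5 (chr5:77115124-77115373), *Aqp5* on the plus strand of chromosome 15 (chr15:99590778-99591027), *Cav1* on the plus strand of chromosome 6 (chr6:17306085-17306334) and *Emp2* on the minus strand of chromosome 16 (chr16:10313969-10314218). Each runs 5′ to 3′ and ends at the base before the start site. Capitals mark the match to a motif, a CArG box, and lower case is all other sequence.
Hopx: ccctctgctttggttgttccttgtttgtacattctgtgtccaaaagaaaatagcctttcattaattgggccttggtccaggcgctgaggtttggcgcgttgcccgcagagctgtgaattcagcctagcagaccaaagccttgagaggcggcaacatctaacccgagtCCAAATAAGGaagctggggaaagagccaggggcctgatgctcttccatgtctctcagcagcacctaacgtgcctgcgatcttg
Aqp5: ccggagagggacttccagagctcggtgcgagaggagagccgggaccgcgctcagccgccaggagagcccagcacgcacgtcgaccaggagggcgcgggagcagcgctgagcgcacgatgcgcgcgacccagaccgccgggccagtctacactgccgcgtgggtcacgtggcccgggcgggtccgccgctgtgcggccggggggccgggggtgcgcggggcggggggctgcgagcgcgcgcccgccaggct
Cav1: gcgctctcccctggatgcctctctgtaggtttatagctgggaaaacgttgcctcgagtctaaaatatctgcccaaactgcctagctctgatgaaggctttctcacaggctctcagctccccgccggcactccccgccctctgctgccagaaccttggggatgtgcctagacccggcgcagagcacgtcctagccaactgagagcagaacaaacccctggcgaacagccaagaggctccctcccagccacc
Emp2: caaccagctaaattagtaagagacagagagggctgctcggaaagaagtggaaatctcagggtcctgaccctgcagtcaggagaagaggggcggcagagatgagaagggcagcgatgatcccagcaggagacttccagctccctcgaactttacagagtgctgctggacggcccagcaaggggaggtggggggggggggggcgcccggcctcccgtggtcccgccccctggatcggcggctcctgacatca

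These 4 stretches differed in composition. That of *Aqp5* was 78.4% G or C with 38 CpG dinucleotides, in the 98.1st percentile of 32851 promoters by G and C content, while those of *Hopx*, *Cav1* and *Emp2* were 52.4%, 59.6% and 62.8%. The median over all promoters was 52.4%. Promoters were listed for 8 of the 10 AT1 genes, *Rtkn2* and *Gprc5a* being the other two. Both strands of all listed promoters were searched for 4 motifs: the TEAD motif GGAATG, the NKX2-1 motif CAAGTG, the FOXA motif TGTTTAC and the CArG box bound by serum response factor (SRF). The motifs do not overlap each other in the matches found. A CArG box lay in the *Hopx* stretch, with its first base 83 before the start, and another in that of *Ager*, 200 before the start. *Pdpn* had a FOXA match 153 before its start. Among all promoters 1.47% held a CArG box, 3.17% the FOXA motif, 12.6% the TEAD motif and 11.6% the NKX2-1 motif. No TEAD or NKX2-1 match was found in any of the 10 listed promoters of the 8 genes. A match describes the letters in the window and is not a measured binding site.

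Cell-surface receptors and glycoproteins were the brightest AT1 genes. *Ager* encodes the receptor for advanced glycation end products, which AT1 cells carry on their basal membrane. Its probe set (1420428_at) gave 14.48, 14.11, 13.96, 14.13 and 14.38 at E17.5, against 10.10, 10.10, 10.12, 9.91 and 10.19 at E11.5. Both stages were tight, with SDs of 0.21 at E17.5 and 0.11 at E11.5. *Ager* rose by 4.13 ± 0.11 on the log2 scale, or 17.46-fold (adjusted p = 1.3e-11). Its signal was already in the 80.2nd percentile of all genes at E11.5 and reached the 99.8th at E17.5, near the highest values of the arrays (14.94 to 15.03).

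*Gprc5a* encodes an orphan G protein-coupled receptor that retinoic acid induces and that is strongly expressed in lung epithelium. Its probe set (1437486_at) gave 13.84, 13.49, 13.38, 13.54 and 13.69 at E17.5, against 10.80, 10.81, 10.93, 10.94 and 11.03 at E11.5. Arrays of a stage again lay close together, and the gap between stages was 2.35. *Gprc5a* rose by 2.69 ± 0.10 on the log2 scale, or 6.44-fold (adjusted p = 1.9e-10).

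*Pdpn* encodes podoplanin, a mucin-type glycoprotein of the apical membrane of AT1 cells. It was the AT1 gene with the highest signal at E11.5. Its probe set (1419309_at) gave 13.44, 13.42, 13.53, 13.56 and 13.37 at E17.5, against 12.27, 12.03, 12.34, 12.03 and 11.97 at E11.5. The E17.5 SD of 0.08 was smaller than that of most genes (5.54th percentile), and no E17.5 array came closer than 1.04 to any E11.5 array. *Pdpn* rose by 1.34 ± 0.09 on the log2 scale, or 2.52-fold (adjusted p = 7e-08). After quantile normalization it was still called, with a difference of 0.93, under 2-fold. It was in the 96.0th percentile of all genes at E11.5 and the 99.0th at E17.5. The mean of 7 mesothelial markers was 6.91 to 7.73 over the E17.5 arrays and 5.77 to 6.48 over the E11.5 arrays. That of 4 lymphatic endothelial markers lay between 6.92 and 8.16 at E17.5, against 5.60 and 6.09 at E11.5. The members of these lists differed. Of the 7 mesothelial markers 3 were higher, among them *Msln* (5.48), and 2 were lower, *Lrrn4* (-0.60) and *Gpm6a* (-0.74). The other 2, among them *Wt1* (-0.14), were not called. Of the 4 lymphatic endothelial markers 3 were higher, namely *Lyve1*, *Flt4* and *Reln*. The lymphatic regulator *Prox1* was lower (-3.43, adjusted p = 8.2e-09). The part of these cells in the *Pdpn* signal was not tested.

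Intracellular signalling is represented by *Akap5*, which encodes a scaffold that anchors protein kinase A, adenylyl cyclases and calcineurin at the membrane. Its probe set (1431717_at) gave 12.71, 12.22, 11.83, 11.92 and 12.54 at E17.5, against 9.49, 10.03, 9.75, 9.78 and 10.13 at E11.5. *Akap5* rose by 2.41 ± 0.18 on the log2 scale, or 5.32-fold (adjusted p = 1.5e-07), and the lowest E17.5 array lay 1.70 above the highest E11.5 array.

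*Rtkn2* showed the smallest difference of the 10. Its probe set (1418108_at) gave 11.13, 10.20, 9.61, 9.86 and 10.29 at E17.5, against 9.28, 9.19, 9.39, 9.23 and 9.52 at E11.5. The stages nearly met, with E17.5 replicate 3 only 0.09 above E11.5 replicate 5, and E17.5 replicate 1 stood 0.84 above the next array. *Rtkn2* rose by 0.90 ± 0.23 on the log2 scale, or 1.86-fold (95% interval 0.39 to 1.40 on the log2 scale, adjusted p = 0.0042). Its place among all genes was about the same at both stages, in the 75.1st percentile at E17.5 and the 71.3rd at E11.5. The call did not hold after quantile normalization between arrays, where the difference was 0.31 on the log2 scale (adjusted p = 0.24). Leaving out any 1 array kept it called, with differences of 0.67 (without E17.5 replicate 1) to 1.05 (without E17.5 replicate 3).

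**Figure D2:**
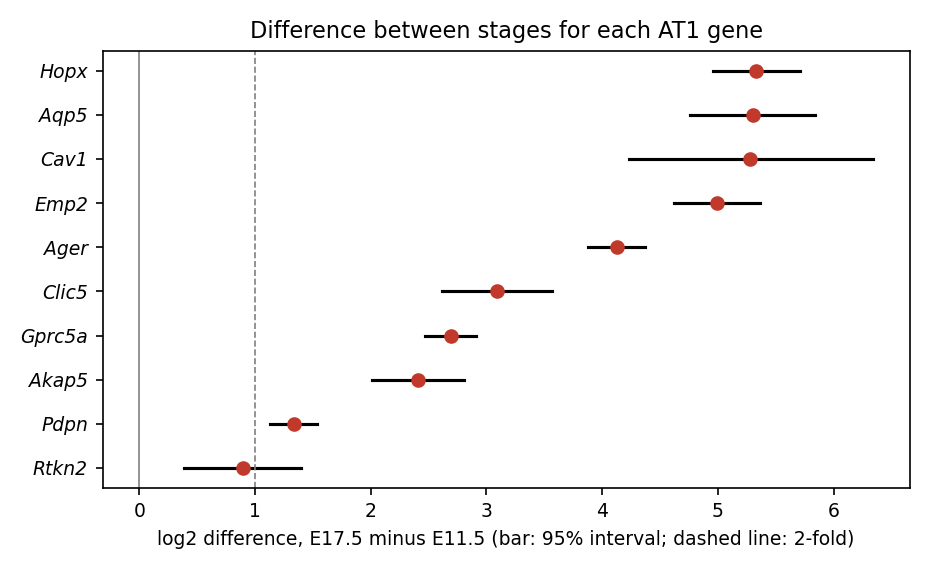
Log2 difference between E17.5 and E11.5 (x axis) for each AT1 gene (y axis), with 95% intervals as bars and a dashed line at 2-fold. *Cav1* has the widest interval (4.23 to 6.34), and the interval of *Rtkn2* (0.39 to 1.40) crosses the 2-fold line.

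The AT1 genes were also ordered by signal within each stage. The brightness of a probe set depends on its probes as well as on the RNA, so this is an order of signals and not of RNA amounts. At E17.5 the order of mean log2 signals was *Ager* (14.21), *Gprc5a* (13.59), *Pdpn* (13.46), *Hopx* (13.45), *Cav1* (12.95), *Akap5* (12.24), *Aqp5* (11.48), *Emp2* (11.12), *Rtkn2* (10.22) and *Clic5* (7.35). Among neighbours in this order, the ranges of the 5 arrays were apart only between *Ager* and *Gprc5a*, *Hopx* and *Cav1*, and *Rtkn2* and *Clic5*. All other neighbours overlapped, and *Pdpn* and *Hopx* differed by only 0.01.

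At E11.5 the order of mean log2 signals was *Pdpn* (12.13), *Gprc5a* (10.90), *Ager* (10.09), *Akap5* (9.83), *Rtkn2* (9.32), *Hopx* (8.12), *Cav1* (7.66), *Aqp5* (6.18), *Emp2* (6.13) and *Clic5* (4.25). The arrays of *Pdpn* did not overlap those of *Gprc5a*, nor those of *Gprc5a* those of *Ager*, and the same held for *Rtkn2* and *Hopx* and for *Emp2* and *Clic5*. The remaining neighbours overlapped. Compared with E11.5, *Hopx*, *Ager* and *Cav1* stood 2 places higher at E17.5 and *Aqp5* and *Emp2* 1 place higher. *Rtkn2* stood 4 places lower and *Pdpn* and *Akap5* 2 places lower. *Gprc5a* was second and *Clic5* last at both stages.

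**Figure D3:**
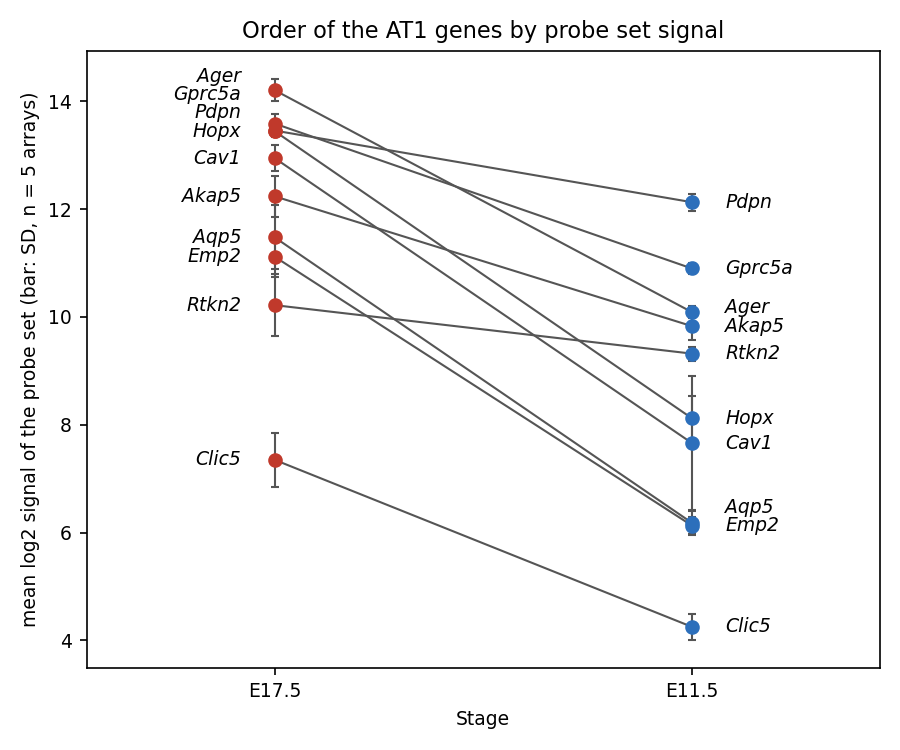
Mean log2 probe set signal (y axis, bars are SD over 5 arrays) of the AT1 genes at E17.5 (left) and E11.5 (right), with a line for each gene. The lines of *Pdpn* (13.46 at E17.5 and 12.13 at E11.5) and *Rtkn2* (10.22 and 9.32) are the flattest, and those of *Hopx*, *Cav1* and *Aqp5* the steepest.

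Within E17.5, most AT1 genes had their highest signal on the same array. Replicate 1 was the highest of the 5 arrays for 8 of the 10, where 25.0% of all genes were highest on that array. The mean of the 10 was 12.42, 11.97, 11.75, 11.76 and 12.14 on replicates 1 to 5. Replicates 3 and 4 were lowest for 5 and 4 of them. The exceptions were *Cav1*, highest on replicate 5, and *Pdpn*, highest on replicate 4. Replicate 1 was also highest for 20 of 33 other AT1 genes, 10 of 16 AT2 markers, 9 of 18 pan-epithelial markers and 0 of 17 endothelial markers. At E11.5 the mean of the 10 stayed between 8.35 and 8.55, and no array was highest for more than 4 of them. Without E17.5 replicate 1, all 10 were still called higher.

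**Figure D4:**
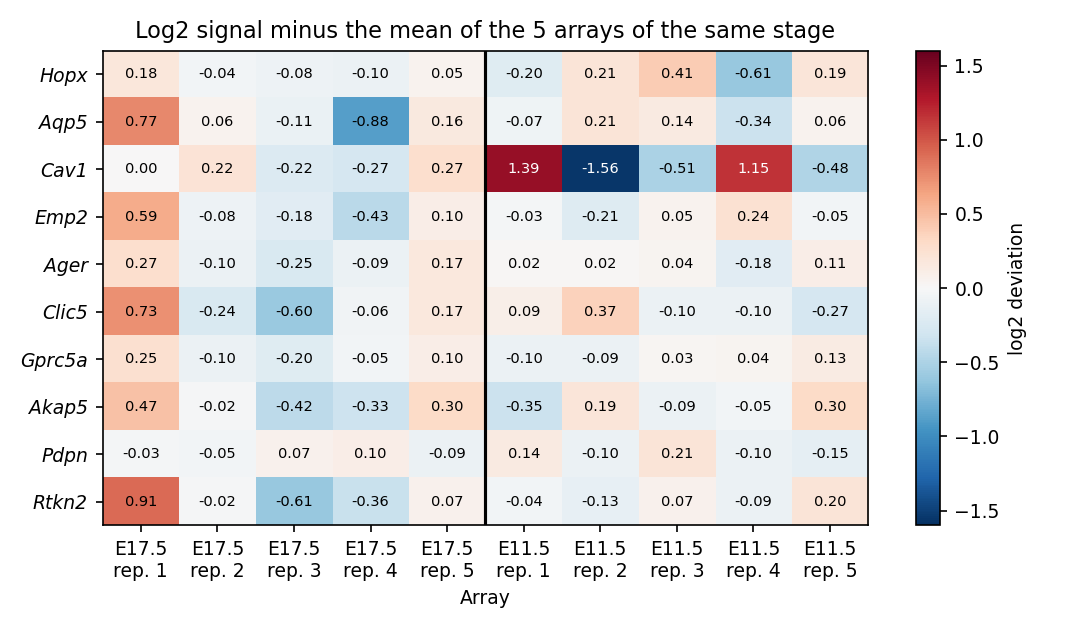
Log2 signal of each AT1 gene (rows) on each array (columns, E17.5 left of E11.5) minus the mean of the 5 arrays of the same stage, with red above and blue below that mean. The column of E17.5 replicate 1 is above the mean for 8 of the 10 genes, and the *Cav1* row at E11.5 runs between -1.56 and 1.39.

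Other genes known from AT1 cells were measured beside the 10. Of 33 such genes, 28 were higher and 3 lower at E17.5 and 2 were not called, beside 36.9% higher and 31.5% lower of all genes. The median difference of the 33 was 2.79 on the log2 scale, beside 0.03 over all genes. The largest differences were those of *Lgals3*, a galactose-binding lectin that macrophages also make (7.06, or 134-fold, adjusted p = 4.3e-13), *Igfbp6*, an insulin-like growth factor binding protein (6.35), *Col4a3*, a basement membrane collagen chain (5.85), and *Cryab*, a small heat shock protein (5.76). *Lgals3* had a mean log2 signal of 13.53 at E17.5 and 6.47 at E11.5. The 3 that were lower were *Igfbp2* (11.42 ± 0.46 at E17.5 and 13.00 ± 0.33 at E11.5, log2 difference -1.58, adjusted p = 4e-05), the growth factor *Pdgfa* (-0.37) and the matrix metalloproteinase *Mmp11* (-0.32, adjusted p = 0.034). *Igfbp2*, another insulin-like growth factor binding protein, is known from more mature AT1 cells. The *Mmp11* call was lost in 8 of the 10 fits that left out 1 array, at adjusted p of 0.051 to 0.079. *Cyp2b10* (0.28) and *Sema3b* (-0.31) were not called. *Sema3b* was called lower after quantile normalization (-0.45, adjusted p = 0.036) and without E17.5 replicate 1 (-0.46, adjusted p = 0.012), and *Cyp2b10* higher without E17.5 replicate 4 (0.47, adjusted p = 0.0035).

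Most caveola genes were higher at E17.5. Of 7 besides *Cav1*, 5 were higher and 2 were not called, with a median difference of 2.38, where 36.9% of all genes were higher. *Cav2*, the partner of caveolin-1 in the coat, had mean log2 signals of 12.65 at E17.5 and 7.25 at E11.5, a difference of 5.40 that was close to the 5.28 of *Cav1*. *Cavin2*, a membrane-shaping coat protein, differed by 5.94 (61.5-fold), *Ehd2*, an ATPase at the neck of caveolae, by 5.03, *Cavin3* by 2.38 and *Cavin4*, the muscle cavin, by 1.76. The muscle caveolin *Cav3* (0.15) was not called, nor was *Cavin1* (-0.05, adjusted p = 0.77), whose product is needed to form caveolae. *Cavin1* had mean log2 signals of 5.77 at E17.5 and 5.82 at E11.5, in the 33.8th and 34.3rd percentiles of all genes. With a probe set this dim at both stages, the missing call does not show that *Cavin1* was unchanged. On the E11.5 arrays *Cavin2* was 7.17, 6.12, 6.54, 6.92 and 6.91, highest on replicate 1 and lowest on replicate 2 as *Cav1* was, over a smaller range. Endothelial cells are rich in caveolae too, and 16 of 17 endothelial markers were higher at E17.5.

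Of 17 relatives of the AT1 genes within their families, 8 were higher, 5 lower and 4 not called, with a median difference of 0.20. These shares are near those of all genes (36.9% higher and 31.5% lower). Among the water channels, *Aqp1*, known from capillary endothelium, had mean log2 signals of 12.60 ± 0.30 at E17.5 and 5.33 ± 0.44 at E11.5, a 155-fold difference (adjusted p = 2.2e-11). *Aqp4*, known from airway epithelium, fell by 2.31 on the log2 scale (4.70 ± 0.50 at E17.5 and 7.01 ± 0.32 at E11.5, adjusted p = 2.1e-06). *Aqp11* was higher (1.03), *Aqp9* was called lower at a small difference (-0.20, adjusted p = 0.049) that was lost in many alternatives, and *Aqp3* (0.20) and *Aqp8* (0.18) were not called. Besides *Aqp5*, the water channel genes of the list called higher were thus *Aqp1* and *Aqp11*.

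The chloride intracellular channel genes went both ways. *Clic3* rose by 6.74 on the log2 scale (107-fold), more than *Clic5*, with 13.92, 13.58, 13.43, 13.69 and 13.81 at E17.5 and 6.87, 7.15, 6.96, 6.86 and 6.88 at E11.5. *Clic1* was higher by 0.57, a call lost after quantile normalization (0.19, adjusted p = 0.24). *Clic4* (-1.45) and *Clic6* (-0.61) were lower. In the family of *Emp2*, *Emp1* (3.98), *Pmp22* (3.42) and *Emp3* (1.94) were all higher. In that of *Gprc5a*, *Gprc5b* was lower (-0.42), and *Gprc5c* (-0.32) and *Gprc5d* (-0.03) were not called. *Gprc5c* was called lower under other scalings, at -0.60 after quantile normalization and -0.45 after median centring. *Rtkn*, the relative of *Rtkn2*, was higher by 0.99 (adjusted p = 7.5e-05).

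**Figure D5:**
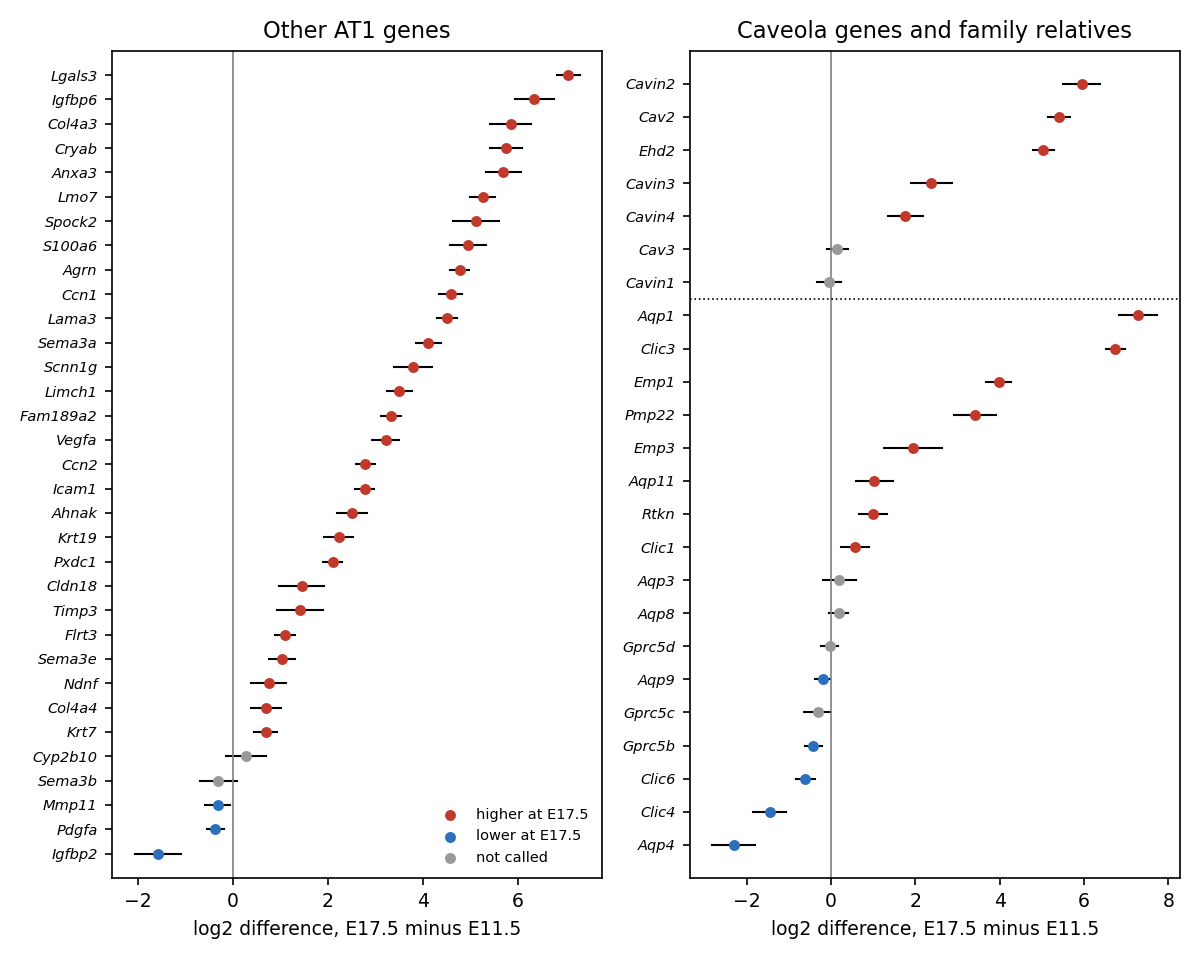
Log2 difference between E17.5 and E11.5 (x axis) with 95% intervals for other AT1 genes (left panel) and, in the right panel, caveola genes above the dotted line and relatives of the AT1 genes below it. Red points were called higher, blue points lower and grey points not called. The left panel holds 28 red and 3 blue points, and the relatives 8 red and 5 blue.

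Known binding partners of the AT1 gene products were taken next. Of 15 measured, 10 were higher, 3 lower and 2 not called, with a median difference of 0.99. Of all genes 36.9% were higher and 31.5% lower. The S100 proteins are ligands of the receptor encoded by *Ager*, and *S100a4* (6.57), *S100a8* (6.22) and *S100a9* (6.03) had large differences. *S100a8* and *S100a9* are best known from neutrophils and monocytes, and the mean log2 signal of 14 macrophage and monocyte markers was 8.94 to 9.72 over the E17.5 arrays and 5.52 to 6.36 over the E11.5 arrays. The part of such cells in the S100 signals was not tested. Podoplanin binds the ERM proteins that tie membranes to actin, and of their genes *Ezr* (4.38, 20.8-fold) and *Msn* (3.47) were higher while *Rdx* was not called (0.17). The *Rdx* result turned with the setting, as it was called lower after quantile normalization (-0.28, adjusted p = 0.0092) and higher with array weights (0.19, adjusted p = 0.043), with trend and robust moderation (0.17, adjusted p = 0.044) and without E17.5 replicate 4 (0.22, adjusted p = 0.029).

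In the mouse heart the HOPX protein binds SRF and recruits the deacetylase HDAC2. *Srf* was higher at E17.5 (mean log2 signal of 12.23 at E17.5 and 9.53 at E11.5, difference 2.70), and *Hdac2* was lower (7.08 and 11.01, difference -3.92, adjusted p = 6.4e-10). AKAP5 anchors type II protein kinase A, and the genes of its regulatory subunits were both lower, with log2 differences of -3.60 for *Prkar2b* and -3.24 for *Prkar2a*. Of the adenylyl cyclases, *Adcy6* was called higher (0.49), a call lost after quantile normalization (-0.12), and *Adcy5* was not called (-0.15). The calcineurin gene *Ppp3ca* was higher (12.20 at E17.5 and 11.22 at E11.5, difference 0.99, adjusted p = 9.3e-07).

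The YAP and TAZ pathway is known to act in AT1 differentiation. Of 14 of its genes, 5 were higher, 6 lower and 3 not called, with a median of -0.33, and 5 were higher and 8 lower after quantile normalization or median centring. In the values as deposited these shares are near those of all genes. The genes of the coactivators themselves went opposite ways. *Wwtr1*, which encodes TAZ, had mean log2 signals of 9.81 ± 0.08 at E17.5 and 8.05 ± 0.29 at E11.5 (difference 1.76, adjusted p = 1e-07), and *Yap1* had 8.05 ± 0.17 and 11.13 ± 0.11 (difference -3.08, adjusted p = 5.6e-11). The other higher genes were *Amotl1* (2.82-fold), *Amotl2* (2.19-fold), *Lats2* (2.01-fold) and *Tead4* (1.98-fold). The kinase genes *Stk4* (-3.37) and *Lats1* (-1.86) and the DNA-binding partner *Tead2* (-2.03) were lower, and *Tead1* (-0.35), *Tead3* (-0.25) and *Vgll4* (-0.41) were not called. *Tead1* and *Vgll4* were called lower under either of these scalings.

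The AT1 genes were set beside the markers of AT2 cells, the other alveolar lineage. Of 16 AT2 markers 15 were higher and 1, *Lpcat1*, was lower (3.17 ± 0.10 at E17.5 and 7.90 ± 0.07 at E11.5). Among all genes 36.9% were higher and 31.5% lower. The median difference of the AT2 markers was 5.69 on the log2 scale, against 3.61 for the 10 AT1 genes. The E17.5 signal of the *Lpcat1* probe set lay in the 2.06th percentile of all genes, near the floor of the arrays. The mean signal of the AT2 markers was 12.41 to 12.85 over the E17.5 arrays and 7.61 to 7.97 over the E11.5 arrays, and that of the AT1 genes was 11.75 to 12.42 and 8.35 to 8.55. Of 11 tip progenitor markers, 3 were higher, 4 lower and 4 not called (median -0.08), again near the shares of all genes. After quantile normalization 2 were higher and 7 lower (median -0.59). A difference between these lists was not tested.

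Last, the genes with the most similar profile over the 10 arrays were found for the 8 AT1 genes with a log2 difference of at least 2, as the smallest root mean square difference in log2 signal after each gene was centred on its own mean. None of the nearest genes was itself one of the 10. *Lmo7*, which is in the list of other AT1 genes, was nearest to *Hopx* (0.166), followed by *Iqgap1* (0.228). *Gprc5a* was followed most closely by *Rac1* (0.074) and *Rae1* (0.081), and *Ager* by *Iftap* (0.074) and *Dcps* (0.104). Nearness by this measure depends largely on a like difference between the stages, which was 4.13 for both *Ager* and *Iftap*. It does not show that genes vary together within a stage. *Slc6a14* (0.189) and *Plk2* (0.254) were nearest to *Aqp5*, *Arhgap30* (0.172) and *Tspan1* (0.176) to *Emp2*, *Tulp1* (0.218) and *2610001J05Rik* (0.229) to *Clic5*, and *Cd9* (0.142) and *Matn4* (0.145) to *Akap5*. *Cav1* had the most distant neighbours, *Lox* (0.542) and the AT1 gene *Spock2* (0.570).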

How the data were processed

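RNA was amplified and labelled by the authors with NuGEN kits, hybridised to Affymetrix mouse microarrays and analysed in R with Bioconductor. Deposited were log2 signals (2.472 to 15.03) in 1 column per array, and the range of the values gave the scale. How background was corrected, arrays were normalized and probe sets were chosen is not given in the sources used. Arrays have no read depth, and their number limits the precision.

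Of 21204 probe sets, 17981 name 1 gene, 514 name several and 2709 are unnamed, and only the first kind was used. For the 167 genes with several, the brightest was taken. The difference between stages was fitted with limma 3.58.1 in R 4.3.3 (lmFit, eBayes) with no other term, adjusting p by Benjamini-Hochberg over 17813 genes. The code of the fit was run on simulated data with independent noise and few changed genes. That setting differs from these data, so it does not test the calls reported. Folds are 2 to the power of the log2 difference.

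The 10 genes, the lists and the motifs were chosen with earlier results of these data known. Genes named are the 10, up to 4 called genes with the largest differences per list described, those needed to name counts of 5 or fewer, a fixed set of marker genes and the 2 nearest profiles. Further list genes were added after their values were seen. *Gramd2*, *Hmgb1*, *Ccl21a*, *Stk3* and *Lamp3* were not analysed here. Promoters were read from a RefSeq table of build GRCm38.p6. Alternatives were quantile normalization, median centring, other probe set choices, a filter on dim genes, a block for replicate number, weights per array, trend and robust moderation, a test against a 2-fold change, and leaving out each array.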

Additional observations from a re-analysis of the deposited data

Results flagged for a closer look

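None of the 10 AT1 genes had an array that stood apart from the other 4 of its stage by Dixon's criterion for 5 values (gap over range above 0.71). Of 86 groups of 5 arrays checked, over the 10 genes and the 33 other AT1 genes, 5 were past it, and chance gives about 5%, or 4.3 groups. *Pxdc1* was 10.51 on E17.5 replicate 4, where the nearest array was 10.82. *Cyp2b10* was 3.14 on the same array (nearest 3.93), and without it the gene was called higher (0.47, adjusted p = 0.0035). *Sema3e* was 10.67 on E17.5 replicate 3 (nearest 11.01). *Fam189a2* was 7.87 on E11.5 replicate 4 (nearest 8.10), and *Anxa3* was 6.76 on E11.5 replicate 2 (nearest 7.36).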

How the results depend on the processing

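Each of the 10 AT1 genes had 1 probe set. Other probe set choices and the filter on dim genes therefore could not change the difference of a gene that remained. The replicate block, the trend and robust moderation and the 2-fold test changed only p-values. Over 20 alternatives, these included, 195 of 197 differences of single AT1 genes kept their direction and their side of the threshold. The other two were *Rtkn2* after quantile normalization (0.31, adjusted p = 0.24) and in the test against a 2-fold change (adjusted p = 1). Leaving out each array gave 10 AT1 genes higher each time, 0 lower, 9 to 10 at least 2-fold higher (8 after quantile normalization, where *Pdpn* fell short at 0.93), 28 to 29 other AT1 genes higher and 2 to 3 lower. The median difference (3.61) was 3.35 after quantile normalization, 4.13 without dim genes (*Clic5* left out) and 2.89 without probe sets with a suffix (*Hopx* and *Cav1* left out), since fewer genes remained in the last 2, and 3.48 to 3.72 with each array left out. Among other AT1 genes, 21 were higher and 1 lower in the test against a 2-fold change, where 28 and 3 were in the fit reported. In the order of signals, 0 to 2 ranks changed with an array left out, and 2 changed without E17.5 replicate 3, E17.5 replicate 4 or E11.5 replicate 2.

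Replicate numbers did not pair the samples: same-number correlations of the deviations were -0.294, -0.184, -0.00628, -0.0982 and 0.074. With the replicate number as a block all 10 AT1 genes stayed higher, with a median difference of 3.61, and *Rtkn2* differed by 0.90 (adjusted p = 0.007). The median over all genes was 0.03 as deposited, -0.04 after quantile normalization and -0.10 after median centring, with 6568, 5676 and 5920 genes higher and 5609, 6949 and 6576 lower. Signals are limited by the lowest and highest values on the arrays, and no detection calls were used.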
